A study of Mus musculus with 16 samples.

Results

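Hepatic inflammatory cells, the fraction of intrahepatic inflammatory cells obtained from a cirrhotic liver, were set against whole liver in mice treated with phosphate-buffered saline (PBS). The samples were taken by their titles: inflammatory cells PBS 11 to 14 and liver PBS 11 to 14, which are 8 of the 16 arrays of the study, with 4 on each side. Both groups came from female C57Bl/6 mice whose cirrhosis was produced by an atherogenic high-fat diet eaten for 40 weeks, and neither group received cells. No allele or transgene is named for these mice, and the strain, sex and diet are shared by every group of the study. So is the time of sampling, 2 weeks after the last injection. The other 8 arrays hold the same sample types from mice injected under the splenic capsule with adipose tissue-derived stem cells (ADSC) grown from the inguinal fat of GFP-transgenic mice. They are used here in a single contrast at the end. The route by which PBS was given, and whether a number stands for 1 animal, are not stated, so p-values here reflect only how much these samples vary, which may be technical. The extraction protocol speaks of cells infiltrating a tumor and of blood, so how the hepatic fraction was isolated is not settled by it, and no sort or gate is named.

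Liver is built mainly of hepatocytes, which make plasma proteins, bile acids and urea and clear drugs, with smaller numbers of bile duct, endothelial, stellate and immune cells between them. The resident immune cells are Kupffer macrophages, natural killer (NK) cells and T cells. In cirrhosis, stellate cells and fibroblasts lay down collagen, and neutrophils, monocytes and lymphocytes enter from the blood. A preparation of inflammatory cells aims to enrich the immune cells over hepatocytes and matrix-forming cells.

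Each array carried 41174 distinct probes, and between 51.6% and 62.2% of spots were well above background on the 8 arrays. The arrays lay on 5 slides and were scanned on 3 days, with no more than 3 of the 8 on a slide. No spot was saturated. Levels are given as log2 signal relative to the 75th percentile of the same array, so a level of 0 is that percentile, and values of 4 arrays follow the order 11, 12, 13 and 14. Arrays of the same sample type correlated at 0.962 to 0.977 in liver and 0.932 to 0.973 in cells, and arrays of different types at 0.553 to 0.692. Cells 13 was the least like the others of its group, at 0.932 to 0.942. The digestive enzymes of the exocrine pancreas were uneven among the cell arrays: the mean level of 24 such genes was 4.97, 0.97, 7.18 and 1.43 in the cells, against -4.08, -4.52, -4.06 and -4.04 in liver. Cells 11 and 13 are therefore called the pancreas-rich arrays, and counts are repeated without both of them where that changes a statement.

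The fraction and the whole liver differed across most of the genome. Of 20205 genes tested, 8303 (41.1%) were higher in the inflammatory cells and 6288 (31.1%) were lower, at an adjusted p under 0.05. Adjusted p-values here and below come from limma with Benjamini-Hochberg adjustment over all genes tested, and "higher" and "lower" always mean the cells against the liver. More than a 2-fold difference, tested with limma's treat, was met by 5155 genes (25.5%) that were higher and 3039 (15.0%) that were lower. In 7773 genes (38.5%) all 4 cell arrays lay above all 4 liver arrays, and in 6056 (30.0%) all lay below. The median log2 difference over all genes was 0.22, and counts of a gene list are to be read against these shares and this median. That median is set by the scaling: it was 0.46 with the 75th percentile taken over detected probes, where 5749 genes were more than 2-fold higher and 2556 lower, and 0.10 with normexp background correction and quantile normalization, where 2270 were higher and 2075 lower. Among genes above background on every array, 1798 were more than 2-fold higher and 1860 lower. Without the pancreas-rich arrays 7922 genes were higher and 6088 lower. A fixed slide term in the fit gave 7290 higher and 5498 lower genes, and one for scan day 7744 and 6106. Cells 11 shared a slide with liver 13, and cells 13 with livers 12 and 14. Among the 8 arrays, cells 12, cells 14 and liver 11 were alone on theirs. The slide term therefore compares only the pancreas-rich cell arrays with livers 12 to 14. The medians of gene lists depended on the background correction as well: with normexp correction and quantile normalization, called normexp from here on, the median of 19 of the 55 lists was smaller in size by over 1.5 times and that of 2 was larger, none changed sign, and those medians are given beside the lists whose own median is printed.

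Ranked by fitted difference among genes measured in both sample types, the 10 genes most above liver were pancreas, heat shock, cytokine and activation genes. They were the pancreatic lipase Pnlip (9.86 ± 1.48), its cofactor Clps (9.49 ± 1.38), 2210010C04Rik (9.13 ± 1.43), the granule protein Sycn (9.00 ± 1.43) and the lipase-related Pnliprp1 (8.25 ± 1.50), then Hspa1b, Hspa1a, Cxcl2 and Ifng, which are described with their lists, and Cd69. Cd69, an early activation receptor of lymphocytes, read -4.27, -3.04, -4.30 and -3.95 in liver, where 1 of 4 arrays was well above background, and 3.46, 3.73, 4.30 and 4.34 in the cells (7.85 ± 0.33, adjusted p = 2.65e-07). Pnlip and Pnliprp1 were also well above background on 1 of 4 livers, and Clps, Sycn and 2210010C04Rik on 2 of 4.

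Among genes measured in both sample types, the 10 furthest below liver were all genes of liver metabolism or secretion. Ftcd, Saa2, Abcg5, Gckr and Cyp2e1 are described with their lists, and the others were Hpd (-8.24 ± 0.47) of tyrosine breakdown, the urate oxidase Uox (-7.96 ± 0.43), the mitochondrial carrier Slc25a47 (-7.90 ± 0.30), Agxt (-7.87 ± 0.46) of glyoxylate clearance and regucalcin, Rgn (-7.86 ± 0.52). Hpd, Agxt and Rgn were well above background on 2 of 4 cell arrays. Among genes not well above background on any cell array the largest bounds were those of Gys2, Bhmt2, Ttpa, Hsd17b6 and Dmgdh, at least 179-fold, 172-fold, 141-fold, 130.3-fold and 128-fold lower. Such a bound compares the mean of the brighter group with the lowest signal that counted as above background on the dim arrays, or with the probe's own signal where that was higher. It holds only under the processing used. Across the alternative fits the estimates of genes named here and below with a bound fell short of it, as Gys2 did at -5.83.

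**Figure D1:**
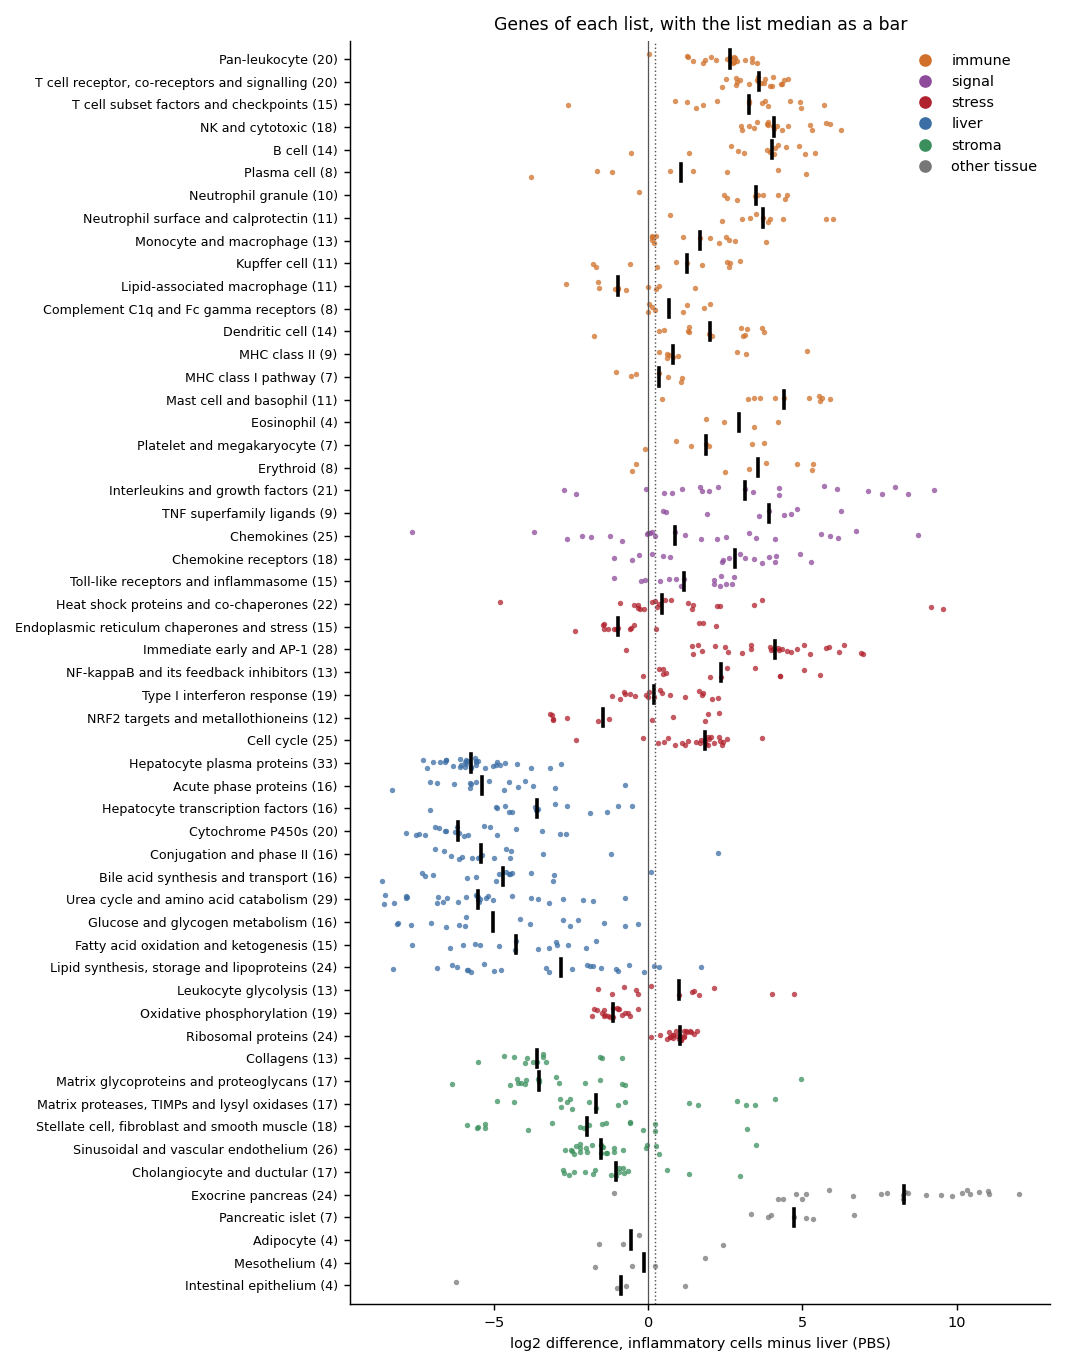
Log2 difference between inflammatory cells and liver (x axis) for every tested gene of each of the 55 lists (rows, with the number of genes tested), coloured by class, with the list median as a black bar and the median of all genes, 0.22, as a dotted line. Lymphocyte, erythroid and immediate early lists lie to the right and hepatocyte and collagen lists to the left, while the Kupffer cell and lipid-associated macrophage lists have members on both sides of 0.

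The label of the fraction was checked first against genes shared by white blood cells. Of 20 such genes, 19 were higher in the cells, with a median log2 difference of 2.65. Ptprc, which encodes the leukocyte surface phosphatase CD45, read 2.08, 2.60, 2.05 and 2.17 in liver and 4.78, 4.86, 4.97 and 5.30 in the cells. Its lowest cell array stood above its highest liver array, and the difference was 2.75 ± 0.21 (standard error, SE; 6.72-fold; adjusted p = 2.36e-06). Coro1a, an actin-binding protein of leukocytes, was 10.4-fold higher and Ikzf1, a lymphoid transcription factor, differed by 3.37 ± 0.28. The exception was Runx1, a blood-forming transcription factor, at 0.01 ± 0.27 (adjusted p = 0.972). The list mean was 0.78, 1.34, 0.63 and 0.94 in the liver arrays and 3.30, 3.43, 2.98 and 3.41 in the cells. In such bulk samples fewer cells of a type and less RNA per cell cannot be told apart.

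Genes of the T cell receptor were higher without exception. All 20 measured genes of the receptor, its co-receptors and its signalling chain passed, with a median of 3.60 (2.29 with normexp), and all 20 were above liver in every cell array. Of the 20, 4 were above background on no liver array and were tested only through the cells. Cd3d, a chain of the receptor complex, read 0.13, 0.45, -0.09 and 0.11 in liver and 3.34, 3.58, 4.93 and 4.98 in the cells. Cells 13 and 14 held more of it than cells 11 and 12, and the groups were far apart: 4.06 ± 0.39, or 16.6-fold (adjusted p = 8.50e-06). Cd3e, another chain, differed by 2.38 ± 0.29 and the kinase Lck, which starts receptor signalling, by 3.54 ± 0.30. Cd4, the co-receptor of helper T cells, was well above background on no liver array and was at least 2.53-fold higher in the cells (adjusted p = 5.13e-06). Its log2 estimate went down to 0.54 across the alternative fits, below that bound.

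Factors that define T cell subsets, and checkpoint receptors, were also mostly higher, with 14 of 15 higher and 1 lower and a median of 3.27 (1.51 with normexp). The filter took in 3 of the 15 only through the cells, which largely set their direction. Tbx21, which encodes the type 1 helper factor T-bet, differed by 3.68 ± 0.26 and Gata3, the type 2 helper factor, by 3.27 ± 0.33. The inhibitory receptor Pdcd1 differed by 3.78 ± 0.31. Ctla4, another such receptor, and Eomes, a factor of cytotoxic and memory cells, were well above background in no liver and were at least 7.08-fold and 9.98-fold higher. Their log2 estimates went down to 1.47 and 1.65 across the alternative fits, below these bounds.

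NK and cytotoxic genes were higher in all 18 members, with a median of 4.06, or 3.60 with the 7 genes dim in liver set at their bound and 2.48 with normexp. Those 7 genes passed the filter only through the cells, so it largely set their direction. Granzyme B, encoded by Gzmb and carried in killer cell granules, read -1.98, -2.60, -2.23 and -1.82 in liver and 2.62, 2.87, 3.49 and 3.58 in the cells. Every cell array exceeded every liver array by more than the spread within either group, and the difference was 5.30 ± 0.28 (39.3-fold, adjusted p = 4.06e-07). Gzma, a second granzyme, was at least 36.4-fold higher and Ncr1, an activating receptor of NK cells, at least 9.31-fold. The pore-forming protein gene Prf1 differed by 3.01 ± 0.46, with liver 11 at -0.97 well above the other livers. Cells 13 and 14 had the highest list means, at 1.88 each, against 0.90 and 0.99 in cells 11 and 12.

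B lymphocyte genes followed, 13 of 14 higher with a median of 4.01, and 2 of the 14 were tested only through the cells. Ms4a1, which encodes the surface protein CD20, read -2.36, -0.53, -2.03 and -2.38 in liver and 3.24, 3.52, 4.05 and 2.19 in the cells, a difference of 5.08 ± 0.49 (33.8-fold, adjusted p = 9.19e-06). Cells 14, the highest array for T cell genes, was the lowest for the B cell list, whose means were 1.54, 1.56, 1.17 and 0.70. Fcer2a, the low-affinity IgE receptor, was at least 26.5-fold higher. Blnk, an adaptor of the B cell receptor, did not pass (-0.56 ± 0.27, adjusted p = 0.0803). Plasma cell genes were split, 4 higher and 3 lower of 8 (median 1.07, 0.55 with normexp). Mzb1, a chaperone of antibody assembly, was higher by 4.19 ± 0.61, while Xbp1, Txndc5 and Sdc1, which hepatocytes or epithelia also express, were lower at -1.18 ± 0.21, -1.67 ± 0.21 and -3.81 ± 0.24. The antibody joining chain Jchain read 0.32, 3.13, 1.92 and 0.08 in liver and 4.02, 4.41, 4.96 and 2.24 in the cells, so the groups overlapped, and its difference of 2.54 ± 0.75 (adjusted p = 0.0112) no longer passed without the pancreas-rich arrays, at 1.96 (adjusted p = 0.125).

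**Figure D2:**
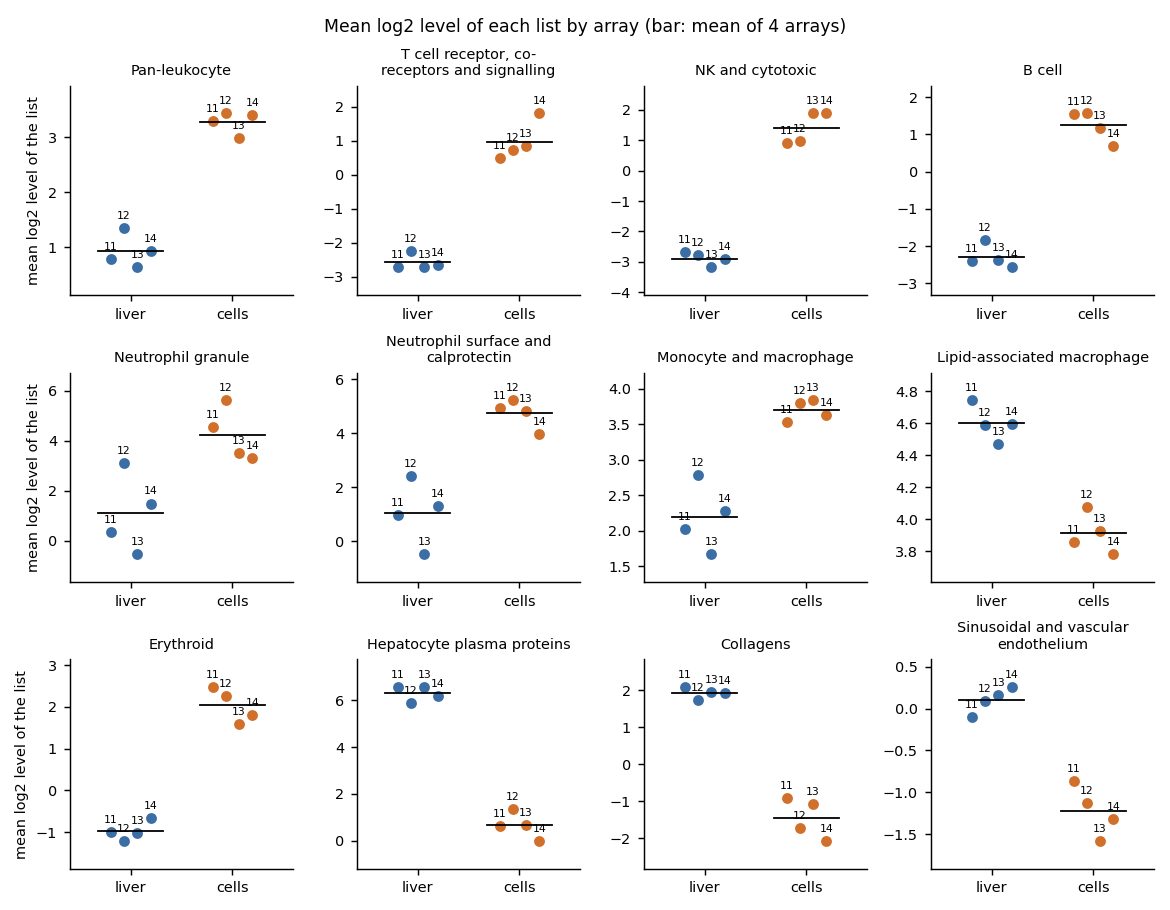
Mean log2 level of 12 gene lists (y axis, relative to the 75th percentile of the array) in each liver array (blue) and inflammatory cell array (orange), numbered 11 to 14, with the group mean as a bar. Lymphocyte and erythroid lists are separated by a wide gap, the neutrophil lists spread widely among the livers, and the lipid-associated macrophage list is higher in liver.

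Neutrophil genes were higher in the cells, and the liver arrays spread widely among themselves. Of 10 granule genes 9 were higher (median 3.50), yet in only 5 did all cell arrays lie above all livers, beside 38.5% of all genes. With slide as a fixed block 5 were higher, and the list median was 5.51 within slide 2 and 1.49 within slide 5, the slides that held both sample types. Ltf, the granule protein lactoferrin, read 1.27, 4.46, 0.69 and 2.61 in liver and 7.13, 8.08, 5.68 and 5.83 in the cells. Liver 12 was the highest liver, nearest to the cell arrays, and the difference was 4.43 ± 0.81 (adjusted p = 7.06e-04). Camp, a granule antimicrobial peptide, and Ctsg, cathepsin G, showed the same order of livers and differed by 4.49 ± 0.75 and 3.56 ± 0.88. Lcn2, a granule protein that hepatocytes also make in inflammation, read 5.81, 6.77, 5.24 and 5.72 in liver and 5.82, 6.78, 5.47 and 4.28 in the cells and did not differ beyond its spread (-0.30 ± 0.50, adjusted p = 0.608).

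The surface and calprotectin genes of neutrophils separated more clearly. Of 11 genes 10 were higher (median 3.71), and 10 did not overlap. S100a8, a subunit of the calcium-binding protein calprotectin, read 5.43, 7.37, 4.01 and 6.20 in liver and 9.42, 9.01, 9.53 and 8.29 in the cells. Liver ran over a wide range, with liver 12 highest and liver 13 lowest, and the cells were 9.92-fold higher on average (3.31 ± 0.62, adjusted p = 7.94e-04). Its partner S100a9 differed by 2.38 ± 0.53. Cxcr2, a chemokine receptor of mature neutrophils, overlapped between the groups at -0.07, 0.95, -2.44 and 0.04 in liver and 0.65, 1.26, -0.47 and -0.10 in the cells (0.72 ± 0.66, adjusted p = 0.349).

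Monocyte and macrophage genes differed from one another. Of 13 measured genes 8 were higher and 0 lower (median 1.66). Ccr2, the receptor that draws monocytes out of the blood, read 0.31, 0.53, -0.66 and 0.15 in liver and 1.94, 2.32, 3.62 and 2.93 in the cells, with no overlap and a difference of 2.62 ± 0.39 (adjusted p = 1.68e-04). The other 5 did not pass on the probes and scaling used, among them Csf1r, Adgre1, Cx3cr1 and Fcgr1. Csf1r, the receptor for macrophage growth factor, read 2.68, 3.46, 2.78 and 3.27 in liver and 3.46, 3.32, 3.08 and 3.28 in the cells (0.24 ± 0.23, adjusted p = 0.366), and passed with normexp at 0.57 (adjusted p = 0.0413). Adgre1, which encodes the F4/80 antigen, was at 2.87 ± 0.43 in liver and 3.00 ± 0.45 in the cells (standard deviation, SD, n = 4 each), and it was higher with the mean of its probes, at 1.11 (adjusted p = 0.00493). Cx3cr1, a chemokine receptor of monocytes, was at -0.02 ± 0.80 and 0.10 ± 0.57. Fcgr1, an Fc receptor, was at 0.13 ± 0.29.

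Kupffer cell genes were uneven, with 6 higher and 2 lower of 11 (median 1.26). These shares, 54.5% and 18.2%, stand beside 41.1% and 31.1% of all genes. Marco, a scavenger receptor, read 1.94, 1.34, 1.22 and 3.89 in liver and 4.48, 4.58, 4.72 and 5.06 in the cells. Liver 14 stood above the other livers, and still below every cell array (2.61 ± 0.52, adjusted p = 0.00123). Timd4, a receptor for dying cells that marks long-resident Kupffer cells, differed by 2.54 ± 0.54, its probe being well above background on 2 of 4 liver arrays. Clec4f, a lectin restricted to Kupffer cells, overlapped at 0.78, 1.47, 0.25 and 3.25 in liver and 1.59, 3.94, 1.91 and 3.35 in the cells (1.26 ± 0.70, adjusted p = 0.128). It passed when liver 14 was left out, at 1.87 (adjusted p = 0.0158), or the pancreas-rich arrays, at 2.21 (adjusted p = 0.0451). Slc40a1, the iron exporter ferroportin, was lower at -1.79 ± 0.25. The counts moved with the arrays used. Without the pancreas-rich arrays 8 of the 11 genes were higher and 2 lower, with a median of 2.21. With slide as a fixed block 4 were higher and 3 lower, with a median of 0.56, and 4 were also higher with scan day as a block and without liver 11, liver 13, cells 12 or cells 14.

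Genes of lipid-associated macrophages, a state described around fat-laden and scarred liver tissue, were mostly lower in the fraction: 7 of 11 were lower and 1 higher, with a median of -0.98, beside 31.1% lower and a median of 0.22 over all genes. The list mean was 4.74, 4.59, 4.47 and 4.60 in the livers and 3.86, 4.08, 3.93 and 3.78 in the cells. Gpnmb, a membrane glycoprotein of that state, read 3.36, 2.96, 3.75 and 3.19 in liver and 0.95, 0.81, -0.23 and 1.09 in the cells (-2.66 ± 0.32, 6.31-fold lower, adjusted p = 3.64e-05). Apoe, an apolipoprotein made by macrophages and hepatocytes alike, was lower at -1.07 ± 0.23. Trem2, the lipid-sensing receptor for which the state is often named, was at 4.29 ± 0.18 in liver and 4.28 ± 0.38 in the cells (SD, n = 4 each), and it did not pass (adjusted p = 0.991); with normexp it was higher, at 0.40 (adjusted p = 0.0278). Lgals3, galectin 3, was the member that was higher (1.51 ± 0.23). Without the pancreas-rich arrays 5 members were lower and 1 higher, and with normexp 3 were higher.

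The complement C1q subunits, made in liver chiefly by macrophages, did not pass: C1qa was at 4.03 ± 0.56 in liver and 4.06 ± 0.26 in the cells, and C1qc at 4.92 ± 0.18 and 5.15 ± 0.34. Among the Fc gamma receptors, which bind antibody, Fcgr2b and Fcgr4 were higher by 1.25 ± 0.34 (adjusted p = 0.00791) and 1.13 ± 0.31 (adjusted p = 0.00782). Of the 8 genes of this list 4 were higher and 0 lower, with a median of 0.67, beside 41.1% higher and 31.1% lower of all genes.

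**Figure D3:**
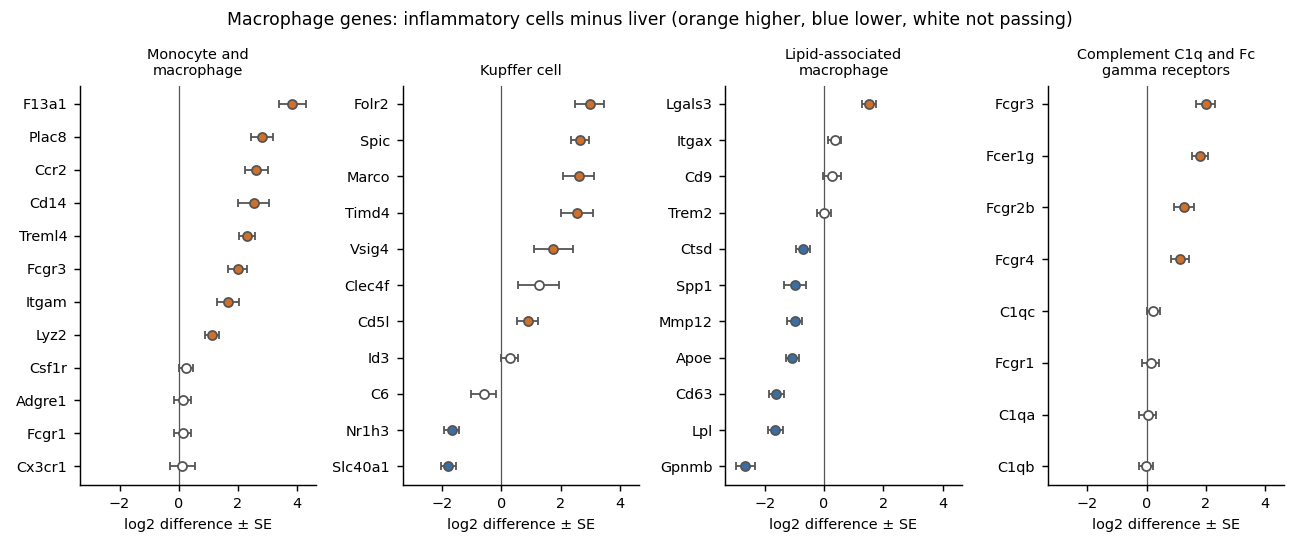
Log2 difference between inflammatory cells and liver with its SE (x axis) for genes of 4 macrophage lists, orange where higher, blue where lower and white where the test was not passed. Monocyte receptors and scavenger receptors sit to the right, Gpnmb and Slc40a1 to the left, and Csf1r, Adgre1, Trem2 and the C1q genes at about 0.

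Dendritic cell genes were higher for 12 of 14 (median 2.02). Xcr1, the chemokine receptor of the cross-presenting subset, read -2.08, -2.00, -1.54 and -1.18 in liver and 0.49, 1.61, 2.05 and 1.60 in the cells, without overlap (3.14 ± 0.35, adjusted p = 2.37e-05). Flt3, the growth factor receptor of these cells, and Zbtb46, their transcription factor, differed by 3.00 ± 0.25 and 3.06 ± 0.30. Across the alternative fits their estimates went down to 1.16 and 1.36, so their size depends on the processing. Itgax did not pass (0.35 ± 0.21), and Cadm1, an adhesion molecule that other tissues express too, was lower at -1.76 ± 0.22. Of 9 MHC class II genes 6 were higher (median 0.81), and H2-Ab1, a class II chain, was at 6.20 ± 0.23 in liver and 6.56 ± 0.33 in the cells (adjusted p = 0.174). With the 75th percentile over detected probes all 9 were higher, and without the pancreas-rich arrays 5 were. Of 7 class I pathway genes 2 were higher and 1 lower (median 0.35, 0.09 with normexp and -0.13 with slide as a fixed block), with the immunoproteasome subunit Psmb8 higher by 1.07 ± 0.18.

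Rarer blood cells were represented as well. Mast cell and basophil genes were higher for 10 of 11 (median 4.40, 3.48 with bounds and 1.83 with normexp). The filter took in 4 of the 11 only through the cells, which largely set their direction. The basophil protease Mcpt8 read 0.60, 1.50, 0.53 and -0.52 in the cells against -5.62, -3.62, -5.66 and -5.08 in liver, where it was well above background on 1 of 4 arrays (5.52 ± 0.52, adjusted p = 8.03e-06). Kit, a growth factor receptor of mast cells, did not pass (0.46 ± 0.31). All 4 eosinophil genes were higher (median 2.94, 1.75 with normexp), among them the granule protein Prg2 by 4.21 ± 0.92, with cells 12 and 14 highest at 4.10 and 3.39. Platelet genes were higher for 6 of 7 (median 1.88, 1.04 with normexp), and for 4 without liver 11, liver 13, cells 13 or both pancreas-rich arrays. Red cell genes were higher for 6 of 8, with a median of 3.55 (2.88 with bounds and 2.15 with normexp). In this list and in the eosinophil list 1 gene each was tested only through the cells. Alas2, the red cell enzyme of haem synthesis, read 1.36, -0.30, 1.65 and 1.10 in liver and 7.19, 6.27, 5.70 and 5.97 in the cells, a 40.3-fold difference with no overlap (5.33 ± 0.45, adjusted p = 4.20e-06). Slc4a1, the red cell anion exchanger, differed by 4.82 ± 0.35, while the erythropoietin receptor Epor and the transferrin receptor Tfrc did not pass (-0.53 ± 0.30 and -0.40 ± 0.20). The part of red cell RNA in the other lists was not tested.

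Cytokine genes gave some of the largest contrasts. Of 21 interleukins and growth factors 17 were higher and 2 lower, with a median of 3.12, or 2.28 with the 7 genes dim in liver at their bound and 1.17 with normexp. Those 7 genes were tested only through the cells, so the filter largely set their direction. Il17a, the cytokine of type 17 and gamma delta T cells, read 3.07, 3.32, 4.32 and 2.93 in the cells and was well above background on no liver array, which makes it at least 157-fold higher (adjusted p = 1.40e-07). Ifng, interferon gamma, read -3.60, -2.27, -3.29 and -3.67 in liver, where 3 of 4 arrays were well above background, and 4.66, 4.69, 5.50 and 5.99 in the cells. That is a difference of 8.41 ± 0.39 (341-fold, adjusted p = 2.75e-07), with cells 13 and 14 highest. Osm and Il6, which signal through related receptors in inflammation, and Il10, which restrains it, were at least 94.1-fold, 62.6-fold and 43.3-fold higher. Across the alternative fits the log2 estimates of Il17a, Osm, Il6 and Il10 went down to 5.70, 4.84, 4.22 and 3.75, below these bounds. Il1b, the inflammasome-processed cytokine, read 0.78, 1.44, -1.27 and 0.72 in liver and 6.82, 6.48, 7.34 and 5.56 in the cells (6.13 ± 0.57, 70.2-fold).

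The members that were lower were Il33 and Il34. Il33, an alarm signal of endothelial and stromal nuclei, read -0.10, -0.57, -1.12 and -0.79 in liver and -3.21, -4.66, -1.37 and -4.21 in the cells, where 1 of 4 arrays was well above background, and cells 13 came close to the livers (-2.72 ± 0.62, adjusted p = 0.00272). Il34, a macrophage growth factor of epithelia, was lower at -2.34 ± 0.23. Csf1, the other ligand of the same receptor, did not pass, at 2.34 ± 0.37 in liver and 2.26 ± 0.76 in the cells. Of 9 TNF superfamily ligands 7 were higher (median 3.93, 1.93 with normexp): Tnf itself by 4.82 ± 0.48 (28.3-fold, adjusted p = 1.07e-05), Lta by 3.58 ± 0.24 and Ltb by 1.90 ± 0.31. The estimate for Lta went down to 1.52 across the alternative fits. The ligands Tnfsf10 and Tnfsf13b did not pass, at 0.58 ± 0.38 and 0.49 ± 0.31.

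Chemokines went both ways, 12 higher and 6 lower of 25 (median 0.88), while a fit with slide as a term gave 3 lower (median 1.41). These shares, 48% and 24%, were near those of all genes, 41.1% and 31.1%. Cxcl2, which attracts neutrophils, read -4.22, -2.36, -4.29 and -3.06 in liver, where 2 of 4 arrays were well above background, and 5.98, 5.44, 5.43 and 4.19 in the cells, a difference of 8.74 ± 0.50 (429-fold, adjusted p = 5.74e-07). Cxcl1, a ligand of the same receptor, read 2.47, 2.14, 1.79 and 2.03 in liver and 2.59, 1.55, 3.02 and 1.06 in the cells. Its cell arrays lay on both sides of the livers, with 11 and 13 higher than 12 and 14 (-0.05 ± 0.41, adjusted p = 0.913). Without the pancreas-rich arrays Cxcl1 was lower, at -0.80 (adjusted p = 0.0265). With slide as a fixed block, which rests on cells 11 and 13, it was higher, at 0.88 (adjusted p = 0.0262). Its direction depended on the cell arrays used and is uncertain. Ccl3 and Ccl4, which attract monocytes and T cells, were higher by 6.73 ± 0.39 and 6.17 ± 0.29, and Ccl5, a product of T and NK cells, by 3.50 ± 0.47. Cxcl12, which stromal and endothelial cells make to hold leukocytes in tissue, was at the other end: 5.43, 4.97, 5.78 and 5.47 in liver and -0.98, -2.64, -1.98 and -3.37 in the cells, 202-fold lower (-7.66 ± 0.45, adjusted p = 6.16e-07).

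Of 18 chemokine receptors 12 were higher and 1 lower (median 2.80), and 3 were lower with normexp. The filter took in 2 of the 18 only through the cells. Cxcr4, the receptor for Cxcl12, read -0.48, -0.22, -1.08 and -0.90 in liver and 3.48, 3.13, 3.66 and 3.49 in the cells, 17.3-fold higher with no overlap (4.11 ± 0.24, adjusted p = 6.00e-07). Cxcr6, which holds lymphocytes in the liver, and Ccr7, which guides cells to lymph nodes, differed by 4.14 ± 0.40 and 4.92 ± 0.25. Those that did not pass were Cxcr2, Cx3cr1 and the atypical receptors Ackr1, Ackr3 and Ackr4, at -0.52 ± 0.37, -0.30 ± 0.28 and 0.48 ± 0.34 for the last 3. Toll-like receptor and inflammasome genes were higher for 11 and lower for 1 of 15 (median 1.16). Tlr2 read 2.41, 2.19, 2.00 and 2.25 in liver and 4.48, 4.52, 4.40 and 3.97 in the cells (2.13 ± 0.20, adjusted p = 8.27e-06), and the inflammasome sensor Nlrp3 differed by 2.70 ± 0.49. Tlr4, the receptor for endotoxin, and Tlr9, the receptor for bacterial DNA, did not pass, at -0.23 ± 0.28 (adjusted p = 0.462) and -0.11 ± 0.27 (adjusted p = 0.733).

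Heat shock genes were among the largest fitted differences of genes measured in both sample types. The cytosolic chaperones Hspa1a and Hspa1b, induced when heat shock factor binds repeats of the letters GAA in a promoter, are shown with Hsph1, Hspb1 and Hspe1 as the 250 bases before the start of transcription. The windows are 5′ to 3′ on the gene's strand, from the RefSeq promoter table of GRCm38.p6, in lower case with every match to GAANNTTC or TTCNNGAA in capitals. Each of these motifs is its own reverse complement, so both strands were searched.
Hspa1a: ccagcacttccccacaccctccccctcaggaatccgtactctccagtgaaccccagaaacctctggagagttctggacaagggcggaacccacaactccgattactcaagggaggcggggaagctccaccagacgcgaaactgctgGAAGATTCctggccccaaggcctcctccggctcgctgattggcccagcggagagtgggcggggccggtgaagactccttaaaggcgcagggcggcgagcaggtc
Hspa1b: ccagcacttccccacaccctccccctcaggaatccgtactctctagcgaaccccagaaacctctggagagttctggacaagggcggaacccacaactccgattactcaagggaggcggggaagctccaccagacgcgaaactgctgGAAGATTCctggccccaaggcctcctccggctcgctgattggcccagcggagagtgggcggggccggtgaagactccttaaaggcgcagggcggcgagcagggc
Hsph1: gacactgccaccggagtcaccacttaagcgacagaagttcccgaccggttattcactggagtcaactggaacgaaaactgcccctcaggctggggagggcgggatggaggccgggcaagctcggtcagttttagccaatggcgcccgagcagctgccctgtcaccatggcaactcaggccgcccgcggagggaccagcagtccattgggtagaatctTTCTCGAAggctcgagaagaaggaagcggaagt
Hspb1: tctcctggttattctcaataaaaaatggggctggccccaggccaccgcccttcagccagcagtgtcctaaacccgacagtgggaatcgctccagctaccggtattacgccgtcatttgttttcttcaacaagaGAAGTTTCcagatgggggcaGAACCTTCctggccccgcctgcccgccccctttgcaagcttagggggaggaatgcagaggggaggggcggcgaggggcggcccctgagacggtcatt
Hspe1: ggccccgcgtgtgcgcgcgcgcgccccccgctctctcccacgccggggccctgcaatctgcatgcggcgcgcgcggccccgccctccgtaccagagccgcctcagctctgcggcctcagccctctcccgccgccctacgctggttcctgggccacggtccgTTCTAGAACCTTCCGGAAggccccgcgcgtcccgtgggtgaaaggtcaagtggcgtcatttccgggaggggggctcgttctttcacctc

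The window of Hspa1a is chr17:34972157-34972406 and that of Hspa1b chr17:34959239-34959488, both on the minus strand, and the 2 are identical at 247 of 250 bases with the match starting at position -104 from the start of transcription in each. Hsph1, at chr5:149636337-149636586 on the minus strand, has 1 match, at -33, in the one of its windows shown. Hspb1, at chr5:135887669-135887918 on the plus strand, has matches at -117 and -97. Hspe1, at chr1:55087898-55088147 on the plus strand, has overlapping matches at -89, -84 and -79, and is shown because its gene did not pass. Over the heat shock list 9 of 17 genes with a window held a match in at least 1 of their windows (52.9%), against 14.6% of 27025 genes counted in the same way and 12.8% of 32851 windows. The windows of Hspd1 and Hspe1 share 215 bases, and their matches are the same sites read on opposite strands. These sites, and those of the near-identical Hspa1a and Hspa1b, are therefore counted for 2 genes each. A match is a description of the letters and not a measured binding site.

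The 2 inducible Hsp70 genes differed by more than the rest of the list. Hspa1b read -3.19, -1.62, -2.50 and -1.87 in liver and 8.18, 7.07, 5.82 and 7.94 in the cells (9.55 ± 0.53, 749-fold, adjusted p = 4.95e-07). Hspa1a read -0.75, 0.62, -0.57 and 0.35 in liver and 9.84, 8.87, 8.30 and 9.32 in the cells (9.17 ± 0.40, 575-fold, adjusted p = 2.75e-07). Their transcripts are near-identical, so a probe for one may bind the other. In both genes cells 11 was the highest array and cells 13 the lowest, and all cell arrays were above all livers. The co-chaperone Dnajb1 read 3.33, 3.00, 3.77 and 3.24 in liver and 7.51, 6.66, 6.52 and 7.39 in the cells (3.68 ± 0.28), and Hsph1, which reloads Hsp70, differed by 3.44 ± 0.33, with the same order of cell arrays at their top and bottom. Hsp90aa1, the inducible Hsp90, was higher by 2.32 ± 0.22, the small heat shock protein Hspb1 by 2.22 ± 0.39 and the constitutive Hspa8 by 1.44 ± 0.32.

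Over the list 11 of 22 genes were higher and 2 lower, with a median of 0.43. Beside it, 41.1% of all genes were higher and 31.1% lower, with a median of 0.22. With the mean of a gene's probes 5 were lower and the median was 0.11. The mitochondrial chaperones Hspe1 and Hspd1 did not pass, at 0.13 ± 0.29 (adjusted p = 0.692) and -0.46 ± 0.26 (adjusted p = 0.14). Hspb8, a small heat shock protein of muscle and epithelia, read 2.49, 1.99, 2.93 and 2.30 in liver and -1.31, -2.98, -2.11 and -3.18 in the cells, 28.2-fold lower (-4.82 ± 0.40), and the co-chaperone Fkbp4 was lower at -0.92 ± 0.22. Of the 9 genes with a match in the window 6 were higher, 1 was lower and 2 did not pass, and of the 8 without one 3 were higher, 1 was lower and 4 did not pass. The 2 with a match that did not pass were Hspd1 and Hspe1, which share their sites.

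Chaperones of the endoplasmic reticulum mostly lay on the other side, 8 lower and 3 higher of 15 (median -0.99). Those higher were Hspa5, the Hsp70 of that compartment, and the stress transcription factors Atf4 and Ddit3. Hspa5 read 5.94, 5.42, 5.84 and 5.63 in liver and 7.39, 7.37, 7.40 and 7.19 in the cells (1.63 ± 0.19, adjusted p = 3.18e-05), and Atf4 and Ddit3 differed by 1.78 ± 0.19 and 2.18 ± 0.23. The folding enzyme Pdia4 was lower at -2.38 ± 0.28 and the Hsp90 of the compartment, Hsp90b1, at -0.99 ± 0.19.

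Immediate early genes, which answer a stimulus within minutes without new protein, were higher for 27 of 28, with a median of 4.12. Nr4a1, an orphan nuclear receptor, read 1.56, 1.25, 1.29 and 1.18 in liver and 8.89, 8.25, 7.88 and 8.15 in the cells. The livers lay close together, and the cells were 126-fold higher (6.97 ± 0.24, adjusted p = 1.32e-07). Fos, a subunit of the AP-1 factor, read -1.84, -0.58, -1.86 and -1.16 in liver and 6.15, 5.50, 4.76 and 5.70 in the cells (6.89 ± 0.37, 118-fold). The stress phosphatase Dusp1 differed by 5.75 ± 0.31, the stress factor Atf3 by 5.25 ± 0.27, Zfp36, which destabilises cytokine messages, by 4.83 ± 0.37 and Egr1 by 3.33 ± 0.36. Klf2, a factor of resting lymphocytes and of endothelium, was the exception at 5.49, 5.34, 5.30 and 5.51 in liver and 4.63, 4.77, 4.59 and 4.72 in the cells (-0.73 ± 0.17, adjusted p = 0.00316). With the mean of its probes in place of the brightest one Klf2 was higher, at 2.07 (adjusted p = 1.29e-05).

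NF-kappaB and the inhibitors it induces were higher for 8 of 13 (median 2.36) and lower for 0. Nfkbia, the inhibitor IkappaB alpha, read 5.29, 4.72, 4.35 and 4.85 in liver and 8.92, 8.26, 7.85 and 8.05 in the cells, 11.0-fold higher (3.47 ± 0.29, adjusted p = 3.58e-06). Tnfaip3, the feedback enzyme A20, differed by 5.05 ± 0.27 and Nfkbiz by 4.28 ± 0.32. The subunit Rel was well above background on no liver array and was at least 5.50-fold higher. Its log2 estimate went down to 1.03 across the alternative fits, below that bound. Rela, the widely expressed subunit, was at 2.80 ± 0.09 in liver and 2.61 ± 0.60 in the cells and did not pass, nor did Relb, Nfkb2, Bcl3 and Tnip1. Without cells 13, 12 of the 13 genes were higher. The windows of Nfkbia and of the chemokines Cxcl2 and Cxcl1 are printed in the same way, with forms of the kappaB site in capitals on either strand: GGG, then NN for any letters, then TTTCC or TTCCC.
Nfkbia: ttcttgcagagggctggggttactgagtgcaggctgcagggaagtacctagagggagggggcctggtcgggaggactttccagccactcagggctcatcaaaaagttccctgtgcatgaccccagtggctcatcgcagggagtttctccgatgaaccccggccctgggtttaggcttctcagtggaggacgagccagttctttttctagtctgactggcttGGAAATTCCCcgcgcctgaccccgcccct
Cxcl2: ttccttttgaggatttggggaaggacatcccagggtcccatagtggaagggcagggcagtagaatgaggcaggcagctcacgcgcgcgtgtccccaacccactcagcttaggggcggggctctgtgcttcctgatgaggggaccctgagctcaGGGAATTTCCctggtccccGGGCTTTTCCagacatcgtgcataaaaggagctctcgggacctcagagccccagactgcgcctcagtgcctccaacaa
Cxcl1: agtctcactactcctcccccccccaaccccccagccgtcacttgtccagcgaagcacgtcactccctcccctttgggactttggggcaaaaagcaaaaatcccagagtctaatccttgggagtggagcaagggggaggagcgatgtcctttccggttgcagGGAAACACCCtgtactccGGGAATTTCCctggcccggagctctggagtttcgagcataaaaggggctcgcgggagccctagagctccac

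Nfkbia, at chr12:55492648-55492897 on the minus strand, has 1 match, at -29. Cxcl2, at chr5:90903649-90903898, and Cxcl1, at chr5:90890995-90891244, both on the plus strand, have 2 matches each, at -97 and -78 in the former and at -89 and -71 in the latter. The 2 chemokines are shown together because Cxcl2 was far higher in the cells and Cxcl1 did not pass. Of the NF-kappaB list 6 of 11 genes with a window held a match (54.5%) and of the chemokines 8 of 18 (44.4%), against 3.25% of all genes and 2.82% of all windows. Of the 8 chemokines with a match 3 were higher, 2 lower and 3 did not pass, and of the 10 without one 4 were higher, 3 lower and 3 did not pass.

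**Figure D4:**
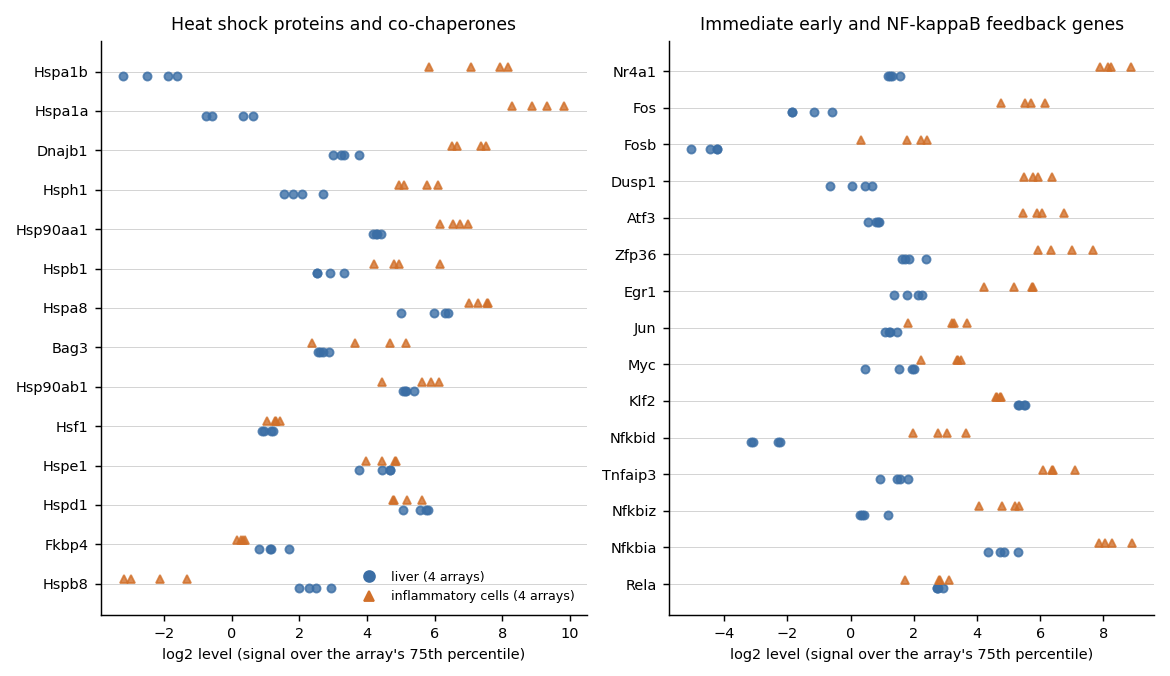
Log2 level relative to the 75th percentile of the array (x axis) of heat shock genes (left) and of immediate early and NF-kappaB feedback genes (right) in 4 liver arrays (blue circles) and 4 inflammatory cell arrays (orange triangles). Hspa1a, Hspa1b, Nr4a1, Fos and Tnfaip3 are separated by wide gaps, while Hspe1, Hspd1 and Rela overlap.

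Type I interferon genes had no common direction, 7 higher and 5 lower of 19 (median 0.20, 0.45 with normexp). These shares, 36.8% and 26.3%, were near those of all genes, 41.1% and 31.1%. Ifit1 read 0.02, -0.54, -0.75 and -0.27 in liver and 2.10, 2.15, 1.74 and 1.46 in the cells (2.24 ± 0.24, adjusted p = 2.05e-05) and the ubiquitin-like modifier Isg15 differed by 1.78 ± 0.23. The number lower was 1 under the scaling on detected probes, 2 without liver 11 or liver 13 and 3 without liver 14 or cells 11. The list median was 0.42 within slide 2 and -0.03 within slide 5. Genes of the oxidative stress factor NRF2 and metallothioneins were lower for 7 and higher for 4 of 12 (median -1.46). Nqo1, a quinone reductase, read 2.08, 0.77, 1.55 and 1.83 in liver and -1.61, -1.86, -0.83 and -2.29 in the cells (-3.20 ± 0.37, 9.21-fold lower), and Gclc, which starts glutathione synthesis, was lower at -3.10 ± 0.36. Hmox1, the haem-degrading enzyme, was higher by 1.83 ± 0.26 (adjusted p = 1.32e-04).

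Cell cycle genes were higher for 20 of 25 (median 1.83, 0.81 with normexp), and the median was 1.95 within slide 2 and 0.93 within slide 5. Ccna2, the cyclin of DNA synthesis, read -1.90, -0.80, -2.09 and -1.78 in liver and 0.33, 1.67, -0.19 and 0.11 in the cells, with array 12 the highest in each sample type (2.12 ± 0.43, adjusted p = 0.00127). Pcna, the clamp of DNA polymerase, differed by 1.83 ± 0.21 and the topoisomerase Top2a by 1.55 ± 0.29. Ccnd1, the cyclin that answers growth factors in hepatocytes, was lower at -2.34 ± 0.29 (adjusted p = 4.88e-05).

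Most hepatocyte genes were lower. All 33 of 33 plasma protein genes were lower, with a median of -5.76 and no overlap in any of them, beside 30.0% of all genes. The filter took in 2 of the 33 only through the liver, which largely set their direction. The list mean was 6.55, 5.86, 6.54 and 6.19 in liver and 0.64, 1.37, 0.69 and -0.01 in the cells. Hepatocyte messages were still measured in the fraction: albumin, Alb, read 9.67, 8.99, 9.72 and 9.41 in liver and 4.94, 5.74, 5.50 and 4.58 in the cells, 19.1-fold lower (-4.26 ± 0.29, adjusted p = 1.36e-06), and remained well above background on every cell array. Apoa1, the main protein of high-density lipoprotein, was 107-fold lower and the clotting protein Fgb 61.8-fold. Cells 12 kept the most of the list and cells 14 the least.

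Acute phase proteins, which the liver secretes in inflammation, were lower for 15 of 16 (median -5.38). Saa2, a serum amyloid, read 7.53, 8.14, 7.36 and 6.59 in liver and -1.18, 0.95, -0.64 and -2.83 in the cells, 321-fold lower (-8.33 ± 0.68, adjusted p = 3.34e-06), while Saa1 and haptoglobin, Hp, were lower at -4.01 ± 0.43 and -3.04 ± 0.31. Hamp, the iron hormone hepcidin, differed by -5.59 ± 0.63. Saa3, which macrophages and stromal cells also make, was the exception at -0.75 ± 0.46 (adjusted p = 0.169), and it passed when cells 13 was left out, at -1.20 (adjusted p = 0.0114). Of 16 hepatocyte transcription factors 15 were lower (median -3.62), and 3 of the 16 were tested only through the liver. Cebpa, which myeloid cells share, read 2.78, 2.34, 3.08 and 2.59 in liver and 1.01, 0.95, 0.19 and 1.08 in the cells (-1.89 ± 0.26, 3.71-fold lower, adjusted p = 1.04e-04).

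The metabolic lists of hepatocytes were also lower. Some members, here and in the next paragraph, were above background on no cell array. They passed the filter only through the liver, so it largely set their direction. They numbered 4 each for the urea cycle and bile acid lists and 3 for glucose and glycogen. The P450, conjugation, fat oxidation and lipid synthesis lists held 2 each. All 20 cytochrome P450 genes were lower (median -6.17), Cyp2e1, which oxidises ethanol, from 6.11, 4.71, 5.93 and 5.96 in liver to -1.31, -1.51, -2.33 and -3.60 in the cells (-7.87 ± 0.51, 233-fold). Conjugating enzymes were lower for 15 of 16, with Ugt2b34 higher at 2.25 ± 0.39. All 29 genes of the urea cycle and amino acid breakdown were lower (median -5.54): Ass1, a step of the urea cycle, at -3.82 ± 0.43, Arg1, the last step, at -5.54 ± 0.43, and Ftcd, which breaks down histidine, at -8.59 ± 0.37 with 3 of 4 cell arrays well above background. Glucose and glycogen genes were lower for 14 of 16 (median -5.05, -3.27 with normexp), the liver glycogen synthase Gys2 at least 179-fold, and Gckr, the glucokinase regulator, at -8.15 ± 0.30. G6pc, the last step of glucose release, overlapped at -0.48, 1.36, 2.48 and 2.05 in liver and 0.53, 0.79, 1.45 and 1.28 in the cells (-0.34 ± 0.56, adjusted p = 0.605). Without liver 11, its lowest liver, the difference passed at -0.95 (adjusted p = 0.0302).

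Fat oxidation and ketone genes were all lower, 15 of 15 (median -4.29), with Cpt1a, the carnitine gate of the mitochondrion, at -2.60 ± 0.29. Lipid synthesis and storage genes were lower for 20 of 24 (median -2.84). Scd1, the desaturase, read 7.16, 6.27, 7.55 and 6.67 in liver and 2.28, 2.27, 1.71 and 1.33 in the cells (-5.02 ± 0.33), and the sterol transporter Abcg5 was lower at -8.26 ± 0.59. Sqle, an enzyme of cholesterol synthesis, did not pass, at 0.19 ± 0.49 (adjusted p = 0.744). Acaca was higher by 1.71 ± 0.31 on the probe used, but another of its probes was at -2.18, so its direction is uncertain. Bile acid genes were lower for 15 of 16 (median -4.72): Abcb11, the bile salt pump, at -7.25 ± 0.30 (152-fold), and Baat, which conjugates bile acids, at least 105-fold. Cyp7a1, the rate-limiting enzyme of bile acid synthesis, was at -3.55 ± 2.26 in liver and -3.46 ± 2.03 in the cells (SD, n = 4 each). Both groups ran over a wide range, from -6.50 in liver 12 and -5.56 in cells 12, the lowest array of each, to array 13, the highest of each (0.09 ± 1.20, adjusted p = 0.949).

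Of 13 glycolysis genes of leukocytes 7 were higher and 3 lower (median 1.00), and 4 higher with slide as a fixed block. The shares in the main fit, 53.8% and 23.1%, stand beside 41.1% and 31.1% of all genes. The list median was 1.71 within slide 2 and 0.18 within slide 5. The phosphofructokinase Pfkp was higher by 2.13 ± 0.31, while Ldha, lactate dehydrogenase, was lower at -0.77 ± 0.20. Oxidative phosphorylation genes were lower for 17 of 19 (median -1.15), of which 2 were beyond 2-fold, and for 9 with slide as a fixed block (median -1.80 within slide 2 and -0.59 within slide 5). The respiratory chain subunit Ndufs1 read 4.46, 3.81, 4.44 and 4.27 in liver and 2.58, 2.89, 3.30 and 2.92 in the cells (-1.32 ± 0.23, adjusted p = 5.41e-04). Ribosomal protein genes were higher for 22 of 24 (median 1.01), none of them beyond 2-fold, and 18 were higher without the pancreas-rich arrays. Rps6 read 5.14, 5.12, 4.89 and 5.17 in liver and 6.06, 6.22, 7.20 and 6.78 in the cells, with cells 13 the highest (1.48 ± 0.27, adjusted p = 6.11e-04).

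Collagens were lower in the fraction without exception, 13 of 13 with a median of -3.62 and no overlap. Col1a1, the main scar collagen, read 3.88, 3.00, 3.44 and 3.41 in liver and 0.48, -0.48, 0.25 and -1.01 in the cells, 12.3-fold lower (-3.62 ± 0.34, adjusted p = 8.01e-06). Col3a1 was lower at -3.99 ± 0.48 and Col18a1, of vessel basement membrane, at -5.52 ± 0.28. Matrix glycoproteins and proteoglycans were lower for 16 of 17 (median -3.54, -2.19 with normexp), and 2 of the 17 were tested only through the liver. The proteoglycan decorin, Dcn, read 6.93, 6.46, 6.92 and 6.65 in liver and 4.37, 1.32, 5.50 and 1.59 in the cells. Cells 11 and 13, the pancreas-rich arrays, held far more of it than cells 12 and 14, and the part of pancreas tissue in those levels was not tested (-3.54 ± 0.83, adjusted p = 0.00329). Lumican, Lum, had the same order, -0.84, -2.64, 0.16 and -3.24 in the cells against 4.71 ± 0.15 in liver (SD, n = 4). Thbs1, thrombospondin 1, which platelets and activated myeloid cells release, was the member that was higher (4.94 ± 0.50, well above background on 2 of 4 liver arrays).

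Matrix proteases and their inhibitors went both ways, 6 higher and 11 lower of 17 (median -1.70, -0.99 with the 2 dim genes at their bound, -0.96 with normexp and -0.56 with normexp and the 75th percentile). Plaur, the urokinase receptor of leukocytes, read 0.94, 1.50, 0.39 and 1.16 in liver and 5.56, 5.86, 4.54 and 4.44 in the cells (4.11 ± 0.37, 17.2-fold, adjusted p = 6.23e-06), and Adam8 was higher by 3.18 ± 0.47. The gelatinase Mmp2, a stellate cell product, was lower at -4.91 ± 0.37, with 1 of 4 cell arrays well above background, and the inhibitors Timp1 and Timp3 at -2.65 ± 0.28 and -2.87 ± 0.40. Stellate cell and fibroblast genes were lower for 12 of 18 (median -2.00, -1.30 with normexp). The filter took in 3 of the 18 only through the liver, which largely set their direction. Lrat, which stores vitamin A in quiescent stellate cells, and Reln were not well above background on any cell array, at least 4.52-fold and 25.8-fold lower. Cygb, cytoglobin of stellate cells, read 3.93, 3.47, 3.81 and 3.70 in liver and -0.54, -1.78, -1.78 and -2.14 in the cells (-5.29 ± 0.33, 39.1-fold lower).

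Smooth muscle genes of the same list did not pass. Acta2, the marker of myofibroblasts and vascular muscle, read 2.89, 3.29, 3.40 and 3.14 in liver and 3.97, 4.07, 1.88 and 3.68 in the cells (0.22 ± 0.44, adjusted p = 0.67). Cells 11, 12 and 14 were above every liver and cells 13 was below, and without cells 13 the difference passed at 0.73 (adjusted p = 0.00812), as it did without both pancreas-rich arrays at 0.69 (adjusted p = 0.027). The muscle genes Myh11 and Cnn1 were at 0.23 ± 0.45 and -0.17 ± 0.54. Cspg4, which pericytes and other precursors express, was the member that was higher (3.19 ± 0.25).

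Endothelial genes were lower for 21 of 26 (median -1.53), and 2 of the 26 were tested only through the liver. Kdr, the main receptor for vascular endothelial growth factor, read 1.10, 1.02, 1.42 and 1.40 in liver and -0.65, -1.34, -1.33 and -1.16 in the cells (-2.35 ± 0.22, 5.12-fold lower, adjusted p = 7.71e-06), and the sinusoidal scavenger receptor Stab2 was lower at -1.33 ± 0.22. Pecam1, which leukocytes and platelets share with endothelium, did not pass (-0.03 ± 0.22, adjusted p = 0.899), and Gata4 was higher by 3.50 ± 0.36. The Gata4 estimate went down to 1.28 across the alternative fits. Bile duct genes were lower for 9 and higher for 1 of 17 (median -1.04). Krt18, a keratin of hepatocytes and ducts, was lower at -2.73 ± 0.27 and the duct factor Sox9 at -1.79 ± 0.29. Krt19, a keratin of ducts only, overlapped at 1.70, 3.00, 0.88 and 2.48 in liver and 2.00, 1.13, 1.18 and 1.07 in the cells (-0.67 ± 0.43, adjusted p = 0.188), and passed without liver 13, its lowest liver, at -1.04 (adjusted p = 0.0283). The median of the bile duct list was 0.15 within slide 2 and -2.09 within slide 5.

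The largest bounds and fitted differences belonged to the pancreas, a gland that makes digestive enzymes and, in its islets, insulin. Of 24 exocrine pancreas genes 23 were higher, with a median of 8.29, or 7.63 with the 11 genes dim in liver at their bound and 5.44 with normexp. Those 11 genes were tested only through the cells, so the filter largely set their direction. Cela3b, a digestive elastase, read 7.87, 3.01, 9.90 and 3.60 in the cells and was well above background on no liver array, which makes it at least 1014-fold higher (adjusted p = 2.18e-05). Cells 13 and 11 held most of it and cells 12 and 14 less, and all 4 were well above background. Carboxypeptidase Cpa1 read 7.47, 2.75, 8.76 and 3.35 (at least 709.9-fold), and the trypsins Prss3, Try5 and Prss2, whose sequences are alike, were at least 854-fold, 603-fold and 494-fold higher. Ctrb1, chymotrypsinogen, was measured on every array: -1.10, -1.24, -0.53 and -0.71 in liver and 5.24, 1.79, 6.66 and 1.86 in the cells (4.78 ± 0.98, 27.5-fold, adjusted p = 0.00149). Without cells 11 and 13 the counts were the same, 23 higher and 1 lower, and the median was 5.48. The member that was lower was Bhlha15 (-1.10 ± 0.38), a secretory cell factor, whose other probe was higher at 4.56, so its direction is uncertain. On the probe used it no longer passed without liver 12, cells 12 or cells 14.

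Of 18 islet genes on the array only 7 were tested, and all 7 were higher. Their median was 4.74, 3.32 with bounds, 2.15 with normexp and 3.74 without cells 11 and 13. Of the 7, 5 were above background on no liver array and passed the filter only through the cells. That filter largely set their direction, so the count is no separate support. Ins2, insulin, read -2.57, 1.69, 5.75 and -1.05 in the cells and was well above background in no liver (at least 28.7-fold, adjusted p = 0.00215). Cells 13 held by far the most and cells 11, rich in exocrine genes, the least. Genes of other neighbouring tissues showed no such common rise. Of 4 adipocyte genes 1 was higher and 1 lower, of 4 mesothelial genes 1 was higher, and of 4 intestinal genes 1 was higher and 3 lower. The lower count of the intestinal list was 1 without liver 13, cells 11, cells 12 or cells 14, and without the pancreas-rich arrays 2 mesothelial and 2 adipocyte genes were lower. Fabp4, a fat cell protein, read 2.96, 3.79, 2.35 and 3.23 in liver and 3.64, 2.05, 3.49 and 1.93 in the cells, where 11 and 13 were again above 12 and 14 (-0.30 ± 0.46, adjusted p = 0.565). The part of pancreas tissue in the other lists was not tested, beyond the counts given without the pancreas-rich arrays.

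**Figure D5:**
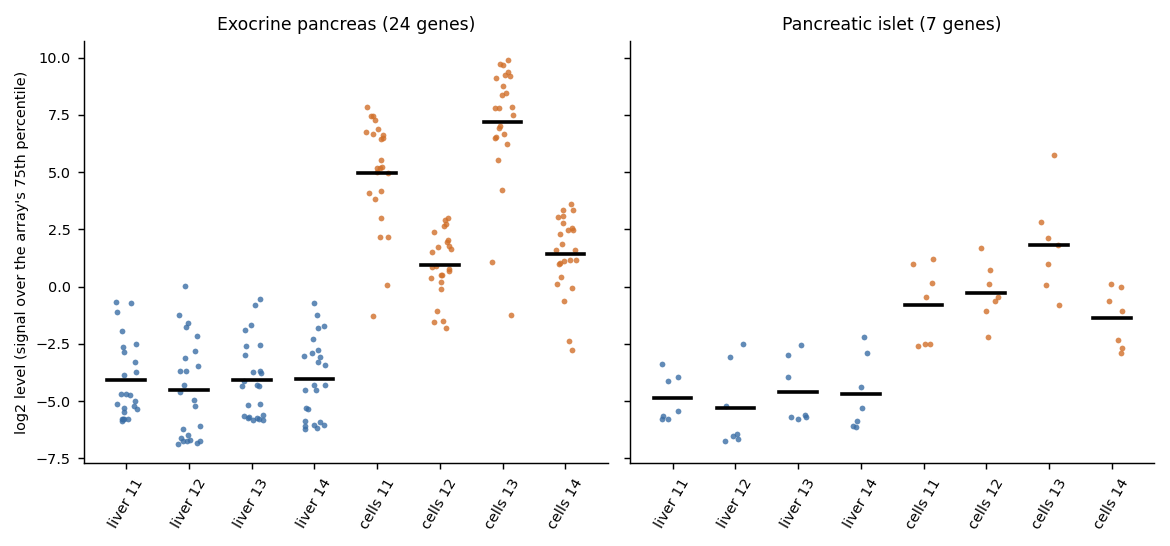
Log2 level relative to the 75th percentile of the array (y axis) of 24 exocrine pancreas genes (left) and 7 islet genes (right) on each liver array (blue) and inflammatory cell array (orange), with the mean of the list as a bar. Exocrine genes are highest in cells 13 and 11 and still above liver in cells 12 and 14, and islet genes are highest in cells 13.

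Whether the fraction differed from liver by the same amount after ADSC was asked with the difference of differences over all 16 arrays. It passed for 7 of 22145 genes (0.0316%), and 2230 genes had an unadjusted p under 0.05. The 1 listed gene among them was Cdk1, the kinase that drives mitosis. It read -3.08, -2.31, -2.89 and -3.07 in liver PBS 11 to 14 and -1.32, -0.01, -0.80 and -1.41 in cells PBS 11 to 14, against -2.36, -2.24, -2.55 and -2.26 in liver ADSC 7 to 10 and -2.61, -2.98, -2.78 and -2.61 in cells ADSC 7 to 10. The cells were above liver after PBS, by 1.96, and below it after ADSC, at -0.39, and the PBS difference minus the ADSC difference was 2.35 ± 0.38 (adjusted p = 0.0485). The Cdk1 contrast no longer passed in 21 of 29 alternative fits. Across the fits its lowest estimate was 0.78 and its highest adjusted p by limma 0.576. The same contrast was 1.76 ± 0.25 for the peroxidase Prdx5, which was higher in the cells after PBS (1.16) and lower after ADSC (-0.60; adjusted p = 0.0286). It was 2.11 ± 0.33 for the actin-severing protein Dstn, whose difference was 0.11 after PBS and -2.00 after ADSC (adjusted p = 0.0381). For Dstn it no longer passed in 18 of 30 alternative fits. The other genes that passed were BC049694, Mfsd7a, Ppp1r42 and Smim5, at 2.76 ± 0.36, 2.04 ± 0.28, 3.92 ± 0.59 and 1.96 ± 0.30, and they, like Prdx5 and Dstn, were named after their values were seen. The count was 0 with a slide term or a replicate block, 74 with normexp correction and quantile normalization, and between 0 and 48 when 1 array was left out.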

How the data were processed

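RNA of 16 samples was hybridised to single-colour Cy3 arrays (Agilent design 014868), 4 for each sample type (liver or inflammatory cells) under each treatment (PBS or ADSC). Per the file headers the deposited intensities were made with Agilent Feature Extraction 10.5.1.1; the processed signal is background-subtracted, and the deposited value table held the same intensities, with a relative difference of 0 from the scanner files, on a linear scale with no centring. Column medians of that table ran from 31.1 to 67.9 in the liver PBS arrays and from 48.0 to 90.9 in the cells PBS arrays.

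From these intensities the log2 processed signal of 43379 non-control spots per array was taken, outlier spots were left out (71 to 124 per array), the 75th percentile of the array was subtracted and spots of a probe were averaged. The 75th percentile was 312 to 553 over the 8 liver arrays and 123 to 510 over the 8 cell arrays, and the number of arrays limits the precision. Names came from the accession column through the RefSeq gene table: 23374 of 41174 probes matched, giving 16535 symbols, and the other 17800 kept the file's name. The probe with the highest mean stood for a gene. Genes well above background on at least 4 of the 8 arrays were tested with limma 3.58.1 (R 4.3.3), two-sided, by empirical Bayes and by treat against a fold of 2, with Benjamini-Hochberg adjustment and a threshold of 0.05. In 9 genes an array was missing because its spots were outliers. The contrast with ADSC used the same steps on 16 arrays. The fit was tested on simulated data.

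The gene lists (55, with 833 tested genes), the comparison and the members were chosen with earlier results of these data known. Genes named are those marked in the lists beforehand, the 10 largest differences each way, the 5 largest bounds each way, and the members outside a list's direction where 5 or fewer; some of these genes stay in the counts but are not reported here by name. Alternatives were the background correction, normalization, scaling percentile, dim-probe filter, probe choice, slide, scan day, replicate number, array weights and left-out arrays. Normexp used the median spot signal, since the mean spot signal named in the plan was not in the files used here.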

Additional observations from a re-analysis of the deposited data

Results flagged for a closer look

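Among 536 groups of 4 arrays checked (110 list means and 426 gene levels), 27 held an array that stood apart from the other 3 by more than Dixon's 95% limit, or 5.04%, about the share of 1 in 20 that chance flags. All values here are log2 levels relative to the 75th percentile of the array.

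Of the list means, liver 12 was the highest liver for T cell receptor genes (-2.25) and cell cycle genes (-0.89) and the lowest for exocrine pancreas genes (-4.52), and liver 14 was the lowest for T cell subset factors (-2.45). Cells 14 was the lowest cell array for mast cell and basophil genes (-0.52) and for glucose and glycogen genes (-1.47), and cells 11 the highest for hepatocyte transcription factors (-1.12).

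Of the single genes in liver, liver 12 stood apart as the lowest for Cyp2e1 (4.71) and Gys2 (2.71) and as the highest for H2-Ab1 (6.54), Mzb1 (0.26), Nfkbiz (1.17) and Rela (2.93). Liver 11 was the lowest for Atf4 (1.37) and the highest for Lgals3 (5.30) and Prf1 (-0.97), and liver 13 was the highest for Ddit3 (-0.093). In the cells, array 14 was the lowest for Hspa5 (7.19) and Hsd17b6 (-5.83) and the highest for Lck (3.74) and Tbx21 (2.57). Cells 13 was the lowest for Cebpa (0.19) and Thbs1 (0.26) and the highest for Lrat (-4.69). Cells 11 was the highest for Krt19 (2.00) and Lta (-0.32), and cells 12 the lowest for Flt3 (-1.44). Hsd17b6 and Lrat were well above background on no cell array, so the order of the cell arrays carries no information for them.

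The cells minus liver difference itself differed between PBS and ADSC, by the limma contrast over 16 arrays, for BC049694 (2.76), Cdk1 (2.35), Dstn (2.11), Mfsd7a (2.04), Ppp1r42 (3.92), Prdx5 (1.76) and Smim5 (1.96), each given as the log2 difference after PBS minus that after ADSC.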

How the results depend on the processing

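The count of 14591 genes passing ran from 13662 to 14951 when 1 array was left out (7871 to 8450 higher, 5791 to 6501 lower), and that of 8194 genes beyond 2-fold from 7643 to 8213 (4850 to 5173 higher, 2793 to 3079 lower). With only genes above background on all arrays, which are fewer, 9103 genes passed, 4373 of them higher, and 3658 were beyond 2-fold (1798 higher, 1860 lower). Normexp correction with the 75th percentile gave 4634 genes beyond 2-fold (2619 higher, 2015 lower) and with quantile normalization 4345 (2270 higher); the cause was not tested. The share of higher genes among those beyond 2-fold was 62.9%, and 52.2% under the latter and 49.2% above background on all arrays. The difference between PBS and ADSC, 7 genes, gave 33 with normexp and the 75th percentile, 74 with normexp and quantile, 21 with quantile alone, 1 with the detected-probe percentile, 64 above background on all arrays, 918 with array weights, and 0 with no filter, the replicate block, slide or scan day as a fixed block, and 0 to 48 with 1 array left out. It was 0 without liver PBS 12, 13 or 14, liver ADSC 7, 8 or 10 or cells PBS 13, and 48 without cells PBS 14.

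Same-numbered liver and cell samples did not deviate together (r of deviations -0.08, 0.17, 0.04 and -0.04 for 11 to 14), so the number was not taken to pair the samples, although this does not show that they came from different animals; with the number as a replicate block 8101 genes were higher and 5992 lower. Direction was reversed for Bhlha15 (1.73) and Klf2 (2.07) with the mean of a gene's probes, for Cxcl1 (0.88) with slide as a fixed block and for Trem2 (0.40) with normexp and quantile normalization. Slide as a fixed block lowered the neutrophil granule count from 9 to 5 and the oxidative phosphorylation count from 17 to 9. That fit rests on cells 11 and 13 and livers 12 to 14. The number of probes well above background limits what is said of dim genes: 1506 tested genes were above it on no liver array and 747 on no cell array.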
